A study of Sus scrofa with 6 samples.

Results

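Genes of excitation-contraction coupling and calcium handling were compared between 2 time points of differentiation in porcine satellite cells (PSCs). The set was given by gene symbol and holds 56 genes of the triad, the sarcoplasmic reticulum (SR), calcium release and entry, CaMK2 and calcineurin-NFAT signaling. Of these, 40 could be paired with a row of the expression table, which has 28266 rows in all. The other 16 (RYR1, RYR3, ATP2A2, STAC3, CACNA1H, CACNB3, JPH2, JSRP1, CAV3, CASQ2, TMEM38B, CLCN1, KCNJ2, ORAI1, CAMK2B and PPP3R1) carried no paired identifier and were not analysed here.

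PSCs are the stem cells of skeletal muscle, which fuse into myotubes in differentiation medium. Per the paper's methods, the cells came from 3-day-old Yorkshire males and were differentiated in DMEM with 5% horse serum. RNA-seq libraries of cells at 24 h (NC24h) and at a later time (NC36h) were analysed, with 3 libraries per group, named replicates 4, 5 and 6 in both. That later time is 48 h in the sample labels, but 36 h in the title of the series and in the paper. Both groups are taken to have received the same negative control (NC) siRNA, because their titles carry the letter N that the paper uses for its NC groups, while the labels name no siRNA. The labels do not say whether replicates are separate animals or cultures, so the p-values measure the spread between these libraries only.

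In a muscle fiber, an action potential runs along the surface membrane into the T-tubules, where the voltage sensor, an L-type calcium channel, is coupled to the ryanodine receptor of the facing SR. The ryanodine receptor then releases calcium that is held in the SR by binding proteins, and SERCA pumps return it after contraction. Calcium also enters from outside when the SR is emptied, through STIM sensors and ORAI channels, and it acts on transcription through CaMK2 and calcineurin, which dephosphorylates NFAT factors. In myoblasts this apparatus is not yet complete, and it is assembled while myotubes form.

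Levels are fragments per kilobase of gene, scaled to the counted fragments of each library (FPKM). They compare genes per unit of length, over all transcripts of a gene together. The whole fragments behind each value were recovered from the steps of the FPKM values, and they number between 16248619 and 16773012 per library in NC24h and between 17872094 and 21721227 in NC36h. The myogenic markers paired in the table were all present, with DES, the muscle intermediate filament, between 1452 and 3367 FPKM over the 6 libraries. The markers of endothelium summed to at most 1.67 FPKM, of adipocytes to at most 0.557, and of neurons and Schwann cells to at most 0.232. The 7 markers of smooth muscle and pericytes summed to between 123 and 147 FPKM in NC24h and between 171 and 205 in NC36h. Most of that sum was NOTCH3, with between 97.1 and 121 FPKM in NC24h and between 133 and 178 in NC36h. Of the 5 of these markers that could be tested, 2 rose (NOTCH3 and ABCC9) and 1 fell (ACTG2). MYH11 was at most 0.0254 FPKM. The 7 fibroblast markers summed to between 945 and 1016 FPKM in NC24h and between 836 and 1039 in NC36h. Of the 5 that could be tested, 4 fell, where 34.4% of all genes tested fell. COL3A1 rose, from a mean of 241 FPKM in NC24h to 443 in NC36h. The part of these cell type markers in the results below was not tested. NC24h replicate 6 stood apart before any member is considered. Its log2(FPKM + 1) values correlated with those of NC24h replicates 4 and 5 at 0.972 and 0.981 (Pearson, across genes), which correlated at 0.993 with each other, and its 5 cycling-cell markers summed to 104 FPKM against 40.5 and 54.8. These markers were lower in NC36h, at between 13.6 and 16.7 FPKM, where 4 of the 5 fell with a median log2 change of -1.84, and their part in the members' values was not tested. Changes are therefore given with and without that library.

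Between NC24h and NC36h, the members moved mainly upward. Of the 36 members with a mean FPKM of at least 1, 19 (52.8%) rose and 7 (19.4%) fell at an adjusted p under 0.05 (limma on log2(FPKM + 1), Benjamini-Hochberg over all 14060 genes tested), while 16.5% of all genes tested rose and 34.4% fell. The rises included the voltage sensor subunits, triadin, the SR calcium-binding proteins, the SERCA pump ATP2A1 and its regulator SLN. The falls included the inositol trisphosphate receptors ITPR2 and ITPR3, ASPH and the plasma membrane pump ATP2B4. Of the 5 tested calcineurin-NFAT genes, PPP3CB fell and the others did not pass the threshold. In RNA from whole cultures, fewer cells of a type and less RNA per cell cannot be told apart.

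The median log2 change of the members was 0.38, where that of all genes tested was -0.16. After median-ratio scaling of the libraries the medians were 0.54 and -0.006, with 21 members higher and 6 lower, beside 23.9% and 22.3% of all genes. A log2 change of at least 1 was seen in 14 of the members that rose and in 2 of those that fell, beside 3.60% and 4.77% of all genes tested in these directions. The added 1 of this scale makes the log2 changes of genes at low FPKM smaller. In 19 members every NC36h library lay above every NC24h library, and in 10 every one lay below, where the shares of all genes were 21.0% and 42.6%. Without NC24h replicate 6, 20 members were higher and 8 lower, beside 17.4% and 34.8% of all genes tested. All 26 calls held there, and each of the 19 rises was smaller. Without NC36h replicate 4, 13 members rose and 6 fell, beside 13.2% and 27.6% of all genes tested. Without NC36h replicate 5, 13 rose and 5 fell, beside 11.2% and 23.5%.

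**Figure D1:**
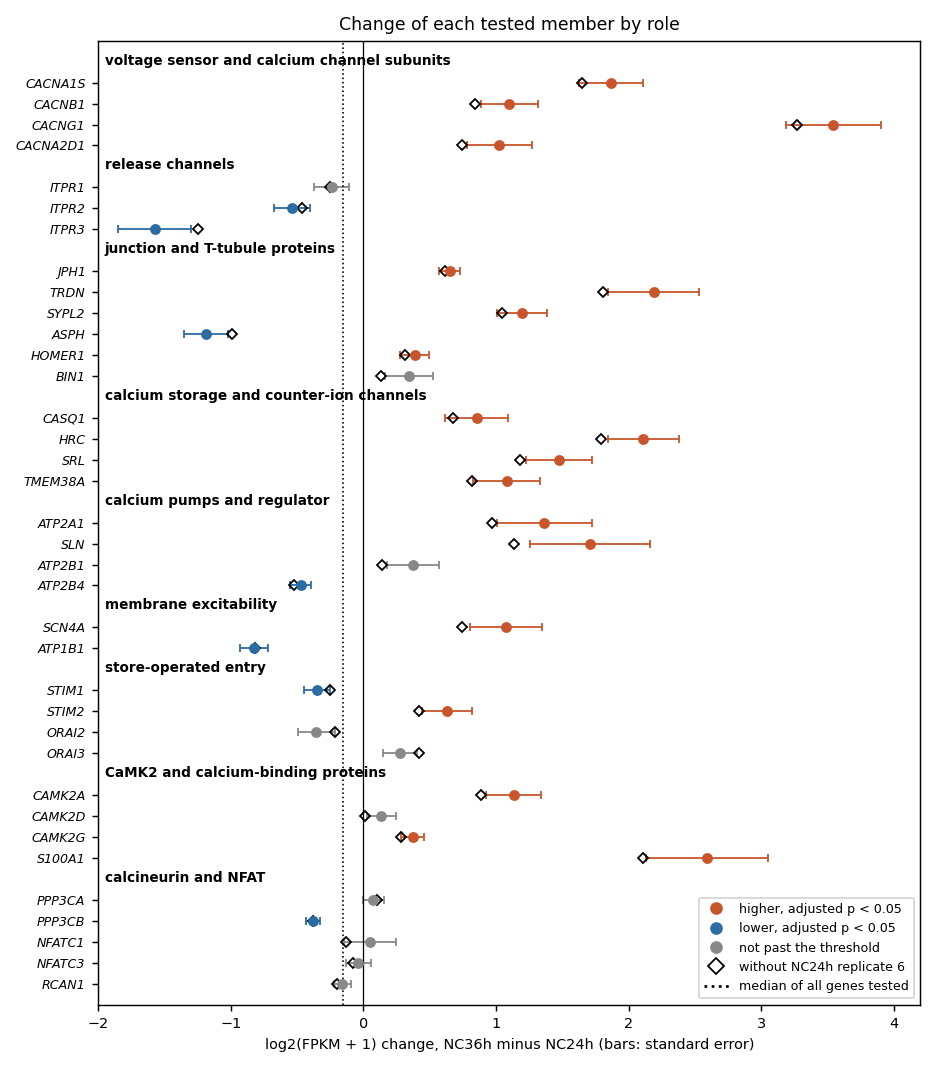
Change in log2(FPKM + 1) from NC24h to NC36h (horizontal axis) for the 36 tested members, grouped by role. Filled points are the values of limma with their standard errors, open diamonds the values without NC24h replicate 6, and the dotted line the median of all genes tested (-0.16). The 4 voltage sensor subunits and the 4 storage genes lie to the right, and the calcineurin-NFAT genes lie between -0.38 and 0.07.

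The voltage sensor is made of a pore-forming subunit that senses voltage (CACNA1S), an intracellular beta subunit (CACNB1), an alpha2-delta subunit (CACNA2D1) and a gamma subunit (CACNG1). All 4 rose, by between 1.03 and 3.54 on the log2 scale. CACNG1 (ENSSSCG00000017271, chr12:13462589-13481651 in RefSeq for Sscrofa11.1) had FPKM values of 2.45, 2.09 and 0.855 in NC24h and of 43.6, 35.4 and 18.3 in NC36h, in replicates 4, 5 and 6. The groups were far apart, and the NC24h values rest on 47, 39 and 16 fragments. The mean rose 18.0-fold, with a log2 change of 3.54 (standard error, SE, 0.36, with a limma adjusted p of 0.000984), the largest of all members tested. CACNA1S (ENSSSCG00000024784, chr10:23503701-23567797) had 1.59, 1.28 and 0.529 in NC24h and 8.22, 7.0 and 4.95 in NC36h. It was low at 24 h in each library, and its mean was 5.94-fold higher later (log2 change 1.87, SE 0.24, limma adjusted p = 0.00178).

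The other subunits were abundant at 24 h already. CACNB1 (ENSSSCG00000017510, chr12:23038185-23060504) had 73.4, 64.8 and 39.7 FPKM in NC24h and 133, 123 and 118 in NC36h. CACNA2D1 (ENSSSCG00000015402, chr9:97781057-98265925), the most abundant of the 4, had 171, 140 and 86.4 and then 288, 273 and 225. Neither gene overlapped between the groups, and replicate 6 was the lowest library of each group in both. Their log2 changes were 1.10 (SE 0.21, limma adjusted p = 0.00624) and 1.03 (SE 0.24, limma adjusted p = 0.0129). Without NC24h replicate 6 the log2 changes were 3.27 for CACNG1, 1.65 for CACNA1S, 0.84 for CACNB1 and 0.75 for CACNA2D1. Set against the pore, CACNB1 and CACNG1 moved in opposite directions. Per unit of length, CACNB1 exceeded CACNA1S by 46.3, 50.7 and 75.1 times in the NC24h libraries and by 16.1, 17.6 and 23.8 times in NC36h. CACNG1 exceeded it by 1.54, 1.64 and 1.62 times and then by 5.31, 5.05 and 3.69 times. These ratios were chosen after the values were seen and carry no test.

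Of the ryanodine receptors among the release channels, only RYR2 could be paired with a row. RYR2 (ENSSSCG00000010142, chr14:53652140-54406691), the main form of the heart, had 0.518, 0.333 and 0.109 FPKM in NC24h and 2.09, 1.59 and 1.10 in NC36h, from 223 and 1365 fragments per group. The groups did not overlap, and the mean was 4.97-fold higher in NC36h. Its mean over all libraries lay just under the minimum for the test. In the fit without that minimum its log2 change was 0.97 (limma adjusted p = 0.00971), on the FPKM + 1 scale, which understates the change of so low a gene. Of the 6 cardiac markers paired, TBX5 was at 0 in all libraries and NPPB, GATA4 and HCN4 were at most 0.164 FPKM. TNNT2, which developing skeletal muscle also expresses, had between 749 and 6820 FPKM, and MYL3, also a slow skeletal gene, was at 0 in NC24h and between 0.603 and 1.72 in NC36h.

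The inositol trisphosphate receptors (ITPRs), calcium channels of the endoplasmic reticulum that open on a signal from surface receptors, went the other way. ITPR3 (ENSSSCG00000001518, chr7:29835922-29901305) had 6.45, 8.05 and 15.1 FPKM in NC24h and 2.12, 2.46 and 2.83 in NC36h. Each NC24h library was above each NC36h library, with NC24h replicate 6 the highest of all. The log2 change was -1.57 (SE 0.28, limma adjusted p = 0.00440), and -1.25 without NC24h replicate 6. ITPR2 had 1.33, 1.75 and 1.96 and then 0.925, 0.817 and 0.776, a log2 change of -0.54 (SE 0.14, limma adjusted p = 0.0163, range 0.00397 to 0.0587 over its alternatives). Its call was lost without NC24h replicate 5, without NC36h replicate 5 and without both replicate 6 libraries. ITPR1 had 1.32, 1.63 and 1.41 and then 0.857, 1.13 and 1.27. Its groups did not overlap, but its log2 change of -0.24 did not pass the threshold (SE 0.13, limma adjusted p = 0.166). The 3 genes summed to 9.09, 11.4 and 18.5 FPKM in NC24h and to 3.90, 4.41 and 4.87 in NC36h. ITPR3 held 74.4% ± 6.41 (SD, n = 3) of that sum at 24 h and 56.1% ± 1.91 later. The length used for ITPR1 was 2019 bases against 11706 for ITPR3, so its level relative to the others is uncertain.

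The junction of T-tubule and SR is held by junctophilins, which span the gap, and by triadin, which links the release channel to the calcium store. TRDN (ENSSSCG00000027613, chr1:39180544-39567245), the gene of triadin, had 22.1, 16.4 and 8.06 FPKM in NC24h and 85.0, 72.6 and 53.6 in NC36h. Its lowest later library was more than the highest earlier one, and the mean rose 4.53-fold (log2 change 2.19, SE 0.35, limma adjusted p = 0.00312). SYPL2 (mitsugumin 29, ENSSSCG00000006829, chr4:110647790-110663199), a synaptophysin-like protein of the triad, had 8.18, 9.21 and 6.11 and then 23.2, 19.8 and 15.0. The log2 change was 1.2 (SE 0.19, limma adjusted p = 0.00312). JPH1 (ENSSSCG00000006174, chr4:61628304-61716550) varied little, with 10.6, 10.3 and 9.55 FPKM and then 18.0, 16.2 and 15.4. Its rise was smaller and steady, with a log2 change of 0.65 (SE 0.08, limma adjusted p = 0.00164). Without NC24h replicate 6 the log2 changes of TRDN, SYPL2 and JPH1 were 1.81, 1.05 and 0.61.

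BIN1 (ENSSSCG00000015720, chr15:25328679-25379675), an amphiphysin that bends membrane into T-tubules, was the most abundant of the junction genes at both times. It had 424, 409 and 267 FPKM in NC24h and 496, 454 and 422 in NC36h. The groups overlapped in level, and the log2 change of 0.35 did not pass the threshold (SE 0.18, limma adjusted p = 0.151). HOMER1, a scaffold that binds calcium channels, rose from 6.03 ± 0.591 to 8.2 ± 0.932 FPKM (SD, n = 3 each), with a log2 change of 0.39 (limma adjusted p = 0.0239, range 0.00924 to 0.0760). Its call was lost without NC24h replicate 5, NC36h replicate 4 or NC36h replicate 5. ASPH (ENSSSCG00000025087, chr4:71902891-72107047) was the one junction gene that fell. It encodes an aspartyl hydroxylase and, through other transcripts, junctin and junctate, which a value per gene cannot separate. It had 14.7, 15.8 and 23.3 FPKM in NC24h and 6.72, 7.42 and 7.39 in NC36h. The log2 change was -1.19 (SE 0.17, limma adjusted p = 0.00218), and -0.99 without NC24h replicate 6, its highest library.

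The 4 storage and counter-ion genes all rose. SRL, the gene of sarcalumenin, and HRC, that of the histidine-rich calcium-binding protein, encode calcium-binding proteins of the SR lumen. SRL (ENSSSCG00000007949, chr3:38073379-38111936) was the most abundant member in NC36h and second to BIN1 in each NC24h library, with 322, 291 and 166 FPKM in NC24h and 766, 734 and 600 in NC36h. HRC (ENSSSCG00000003156, chr6:54337348-54341638) had 50.9, 44.1 and 24.0 and then 186, 175 and 142. Both separated the groups fully. Their means rose 2.70-fold and 4.23-fold, with log2 changes of 1.48 (SE 0.25, limma adjusted p = 0.00388) and 2.11 (SE 0.27, limma adjusted p = 0.00172). TMEM38A (TRIC-A, ENSSSCG00000013864, chr2:60929043-60960527), a potassium channel that balances charge when calcium leaves the SR, had 71.0, 64.5 and 38.6 and then 147, 124 and 95.0 FPKM. Its log2 change was 1.08 (SE 0.25, limma adjusted p = 0.0123).

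CASQ1 (ENSSSCG00000006390, chr4:90276752-90288990), the main calcium buffer of the SR in adult fast fibers, was by far the lowest of the storage genes. It had 0.866, 0.927 and 0.297 FPKM in NC24h, from 27, 28 and 9 fragments, and 2.87, 2.03 and 1.36 in NC36h, from 110, 82 and 45. The groups did not overlap, and the mean was 2.99-fold higher in NC36h (log2 change on the FPKM + 1 scale 0.86, SE 0.24, limma adjusted p = 0.0227). This scale understates the change of so low a gene. The call was lost without NC36h replicate 4 or 5 (range 0.00661 to 0.0705 over its alternatives). Without NC24h replicate 6 the log2 changes of SRL, HRC, TMEM38A and CASQ1 were 1.18, 1.79, 0.82 and 0.67.

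**Figure D2:**
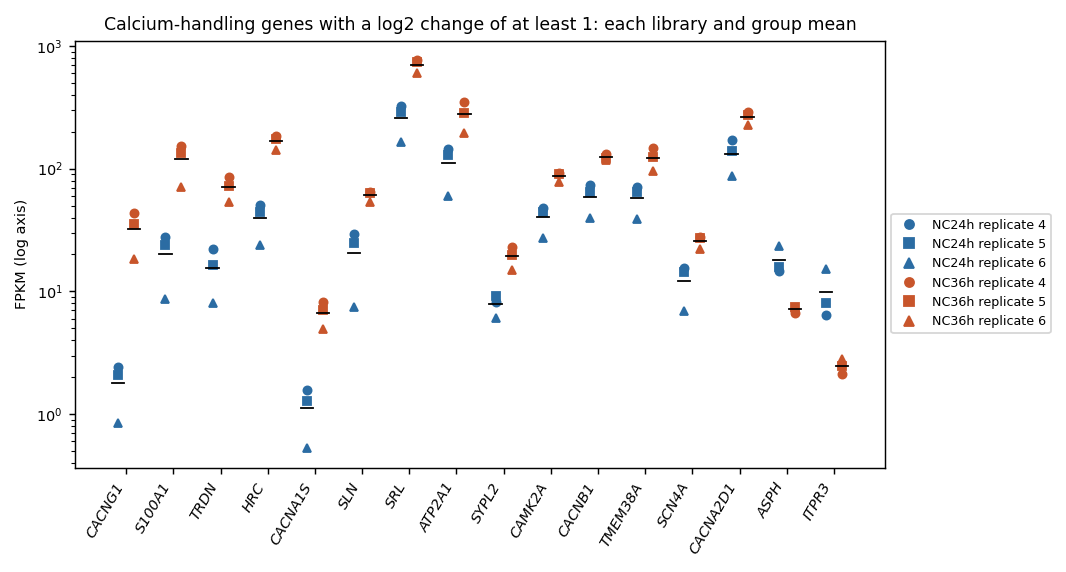
FPKM (log axis) of the 16 members past the threshold with a log2 change of at least 1, in order of that change. Each point is a library, with the shape giving its replicate number, and bars are group means. The 14 members that rose have replicate 6 as the lowest point in both groups, and SRL is the highest gene at both times.

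ATP2A1 (ENSSSCG00000007805, chr3:18545064-18568312) encodes SERCA1, the SR calcium pump of fast muscle, and SLN encodes sarcolipin, a small membrane protein that binds and slows the pump. ATP2A1 had 144, 130 and 60.3 FPKM in NC24h and 352, 285 and 196 in NC36h. SLN (ENSSSCG00000029651, chr9:36232955-36242405) had 29.5, 24.7 and 7.48 and then 64.9, 63.1 and 53.8. Neither gene overlapped between the groups, and NC24h replicate 6 was far under its group. The log2 changes were 1.36 for ATP2A1 (SE 0.36, limma adjusted p = 0.0190) and 1.71 for SLN (SE 0.45, limma adjusted p = 0.0194), and 0.97 and 1.13 without that library. Both calls were lost without NC36h replicate 4 or 5, with ranges over the alternatives of 0.000689 to 0.0648 and 0.000424 to 0.0616. Within a library ATP2A1 exceeded SLN by 4.89, 5.27 and 8.07 times at 24 h and by 5.42, 4.51 and 3.65 times later, so the ratio overlapped between the groups.

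The plasma membrane calcium pumps behaved differently from SERCA1. ATP2B4 (ENSSSCG00000015273, chr9:64336354-64445669) had 114, 115 and 103 FPKM in NC24h and 74.9, 77.1 and 86.5 in NC36h, without overlap. It fell by 0.47 on the log2 scale (SE 0.08, limma adjusted p = 0.00389). ATP2B1 had 62.4, 55.0 and 35.6 and then 68.8, 63.9 and 61.2 FPKM. These groups overlapped, and its log2 change of 0.37 missed the threshold (SE 0.20, limma adjusted p = 0.150). ATP2B1 held 31.2% ± 4.93 (SD, n = 3) of the sum of both genes at 24 h and 44.9% ± 3.25 later.

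Of the genes that set membrane excitability, 2 could be paired with a row and they changed in opposite directions. SCN4A (ENSSSCG00000017282, chr12:15001356-15048092), the sodium channel of the muscle action potential, had 15.4, 14.4 and 6.98 FPKM in NC24h and 27.7, 27.4 and 22.2 in NC36h. It rose by 1.08 on the log2 scale (SE 0.27, limma adjusted p = 0.0164), and by 0.75 without NC24h replicate 6. The call was lost without NC36h replicate 4 or 5 (range 0.000499 to 0.0581). ATP1B1 (ENSSSCG00000006296, chr4:81912543-81937015), the beta1 subunit of the sodium-potassium pump, had 54.4, 51.1 and 53.6 and then 26.1, 28.5 and 34.4 FPKM. Here NC24h replicate 6 lay between the other replicates of its group. The log2 change was -0.83 (SE 0.10, limma adjusted p = 0.00165), and -0.82 without that library.

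For store-operated calcium entry, the 2 SR calcium sensors changed in opposite directions. STIM2 (ENSSSCG00000008762, chr8:20456343-20609283) had 16.2, 13.3 and 9.20 FPKM in NC24h and 21.2, 21.0 and 18.1 in NC36h, whereas STIM1 (ENSSSCG00000014792, chr9:6066612-6270090) had 12.6, 12.7 and 15.7 and then 10.3, 10.7 and 10.4. Neither gene overlapped between the groups. The log2 changes were 0.63 (SE 0.19, limma adjusted p = 0.0289, range 0.00886 to 0.0890) and -0.35 (SE 0.10, limma adjusted p = 0.0213, range 0.0144 to 0.112). The STIM2 call was lost without NC24h replicate 5 or NC36h replicate 4 or 5. The STIM1 call was lost without any 1 of the NC36h libraries, and also when the libraries were scaled by median ratios or quantile-normalized. STIM1 made up 43.8%, 48.9% and 63.0% of the summed STIM level in NC24h and 32.6%, 33.8% and 36.5% in NC36h, and a share does not depend on the scaling of libraries. Of the ORAI channels, ORAI3 was the more abundant, with 18.6, 19.7 and 26.2 FPKM and then 24.3, 25.9 and 27.8. Its log2 change of 0.28 was within the spread of NC24h (limma adjusted p = 0.118), and it passed the threshold without NC24h replicate 6 at 0.42 (adjusted p = 0.00508), without both replicate 6 libraries at 0.37 (adjusted p = 0.00659), after median-ratio scaling at 0.45 (adjusted p = 0.0229) and with a replicate block (adjusted p = 0.0482), in a range of 0.00508 to 0.284. ORAI2 had a mean of 4.2 ± 0.903 and then 3.03 ± 0.253 FPKM (SD, n = 3 each), and its log2 change of -0.36 did not pass (limma adjusted p = 0.0714, range 0.0456 to 0.233).

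CaMK2 is a calcium-calmodulin kinase whose subunits come from 4 related genes, of which 3 could be paired with a row. CAMK2A (ENSSSCG00000014443, chr2:151248356-151353907) had 48.1, 44.6 and 27.5 FPKM in NC24h and 92.3, 91.1 and 77.4 in NC36h. CAMK2D had 76.5, 73.9 and 58.2 and then 76.5, 74.1 and 77.4. The alpha subunit gene separated the groups, and that of the delta subunit did not. Their log2 changes were 1.13 (SE 0.21, limma adjusted p = 0.00492) and 0.14 (SE 0.11, limma adjusted p = 0.319), and 0.89 and 0.02 without NC24h replicate 6. CAMK2G rose from 26.8 ± 2.87 to 34.9 ± 1.17 FPKM (log2 change 0.37, limma adjusted p = 0.0129). CAMK2A thus went from 29.0% ± 3.33 to 43.9% ± 2.49 of the summed level of the 3 genes (SD, n = 3 each).

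S100A1 (ENSSSCG00000031053, chr4:96007026-96012305), a calcium-binding protein of striated muscle that acts on the release channel and on SERCA, had 27.7, 23.7 and 8.70 FPKM in NC24h and 152, 135 and 71.4 in NC36h. Its mean rose 5.98-fold, second only to CACNG1 by log2 change among the members tested (2.59, SE 0.46, limma adjusted p = 0.00454), and the change was 2.11 without NC24h replicate 6. The length used for it was 335 bases, and 48 to 157 fragments per library lie behind the NC24h values. PVALB, the gene of parvalbumin, a relaxing factor of adult fast fibers in small mammals, was listed at 0 in all 6 libraries.

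Calcineurin, the calcium-dependent phosphatase, has a catalytic subunit from PPP3CA or PPP3CB. PPP3CB (ENSSSCG00000010301, chr14:76239497-76305345) had 49.4, 49.6 and 49.3 FPKM in NC24h and 37.8, 38.0 and 37.5 in NC36h, while PPP3CA had 22.8, 20.9 and 23.4 and then 25.4, 22.0 and 23.4. The replicates of PPP3CB were within 1 FPKM of each other, and it was the one gene of this group that passed the threshold. It fell by 0.38 on the log2 scale (SE 0.05, limma adjusted p = 0.00196), whereas PPP3CA had a log2 change of 0.07 (SE 0.08, limma adjusted p = 0.466). With median-ratio scaling these were -0.21 (adjusted p = 0.0206) and 0.24 (adjusted p = 0.0353), with ranges over the alternatives of 0.00158 to 0.0206 and 0.0353 to 0.858. NFATC3, the most abundant of the NFAT genes, had 11.7, 10.1 and 9.86 FPKM and then 10.5, 10.9 and 9.39, and NFATC1 had 4.15, 3.77 and 2.40 and then 4.35, 3.54 and 2.81. Both overlapped between the groups and neither passed the threshold (log2 changes -0.04 and 0.05, limma adjusted p = 0.760 and 0.847), and the sign of both depended on the setting. NFATC2 and NFATC4 stayed under the minimum, at no more than 0.142 and 0.595 FPKM. RCAN1, an inhibitor of calcineurin that NFAT itself induces, had 39.1, 37.7 and 35.2 and then 34.1, 32.4 and 33.5 FPKM. The groups did not overlap, yet its log2 change of -0.16 did not pass (SE 0.06, limma adjusted p = 0.0735), was -0.20 without NC24h replicate 6 (adjusted p = 0.0249) and 0.01 with median-ratio scaling (adjusted p = 0.911, range 0.0249 to 0.911).

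Ratios of related genes within a library do not depend on how libraries are scaled, so they were compared for the 9 of 19 listed pairs with both genes above 0 in every library. In 6 pairs the groups did not overlap. Among levels of single genes, 21.0% of all genes tested were higher without overlap and 42.6% lower. No such share was computed for ratios of other gene pairs. The difference of the mean log2 ratio, NC36h minus NC24h, was 1.48 for ITPR1 over ITPR3, 1.02 for CAMK2A over CAMK2D, 0.86 for ATP2B1 over ATP2B4, 0.46 for PPP3CA over PPP3CB, 0.25 for CAMK2G over CAMK2D and -1.05 for STIM1 over STIM2. Each had an exact two-sided permutation p of 0.10, the smallest that 3 against 3 libraries can give (0.15 after adjustment over the 9 pairs), so none can pass a threshold of 0.05. Without NC24h replicate 6 these differences were 1.10, 0.89, 0.67, 0.50, 0.28 and -0.72. The ratios of ITPR1 to ITPR2, NFATC1 to NFATC3 and NFATC2 to NFATC3 overlapped between the groups (exact permutation p = 0.30, 0.70 and 0.50).

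**Figure D3:**
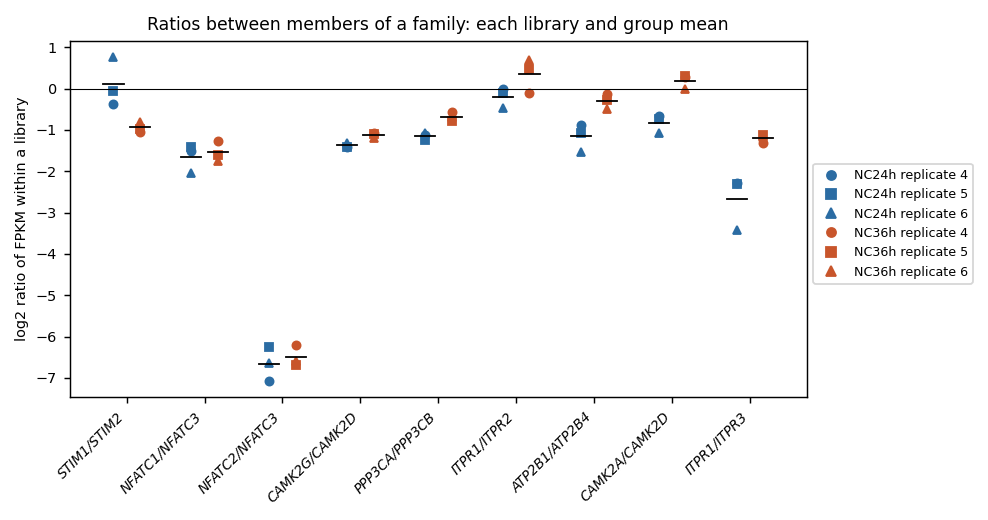
log2 ratio of the FPKM values of 2 related genes within each library, for 9 pairs in order of their change. Points are libraries, with the shape giving the replicate number, and bars are group means. STIM1/STIM2 lies lower in NC36h than in NC24h, CAMK2A/CAMK2D lies higher, and the NFAT ratios overlap between the groups.

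The members that rose shared an order of replicates, which most sarcomere genes that rose had too. In all 19, replicate 6 was the lowest library in NC24h and also the lowest in NC36h, and this held for 17 of the 20 sarcomere genes that rose, for 33.2% of all 2322 genes that rose and for 15.5% of all genes tested. The level in replicate 6 over the mean of replicates 4 and 5 ranged from 0.276 to 0.915 (median 0.542) in NC24h and from 0.462 to 0.954 (median 0.800) in NC36h. SLN had the lowest ratio in NC24h, while CACNG1 had the lowest in NC36h. In the 7 members that fell, the ratios had medians of 1.24 and 1.05. The labels give no culture, animal or batch for the number 6, so what these libraries share cannot be told from them. The summed myogenic markers, of which DES was the largest part, were also lowest in replicate 6. The sum was 2624 FPKM against 3543 and 3338 in NC24h and 5545 against 6141 and 6139 in NC36h. In NC24h replicate 6, DES, MYMK, CHRNA1 and MEF2C were lowest, but MYOD1, MYF5 and CDH15 were highest. These 3 had 386, 112 and 188 FPKM there, against 255, 66.9 and 160.5 in replicate 4 and 306, 75.4 and 179 in replicate 5. MYF5 and CDH15 were highest in NC36h replicate 6 too, at 74.2 and 315 FPKM. The part of these markers in the members' values was not tested. Without both replicate 6 libraries, a fit added after these values were seen, 20 members rose and 7 fell, beside 18.0% and 34.7% of all genes tested. The 7 were not the same genes, since ITPR2 lost its call there (limma adjusted p = 0.0524) and RCAN1 gained one (limma adjusted p = 0.0362).

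**Figure D4:**
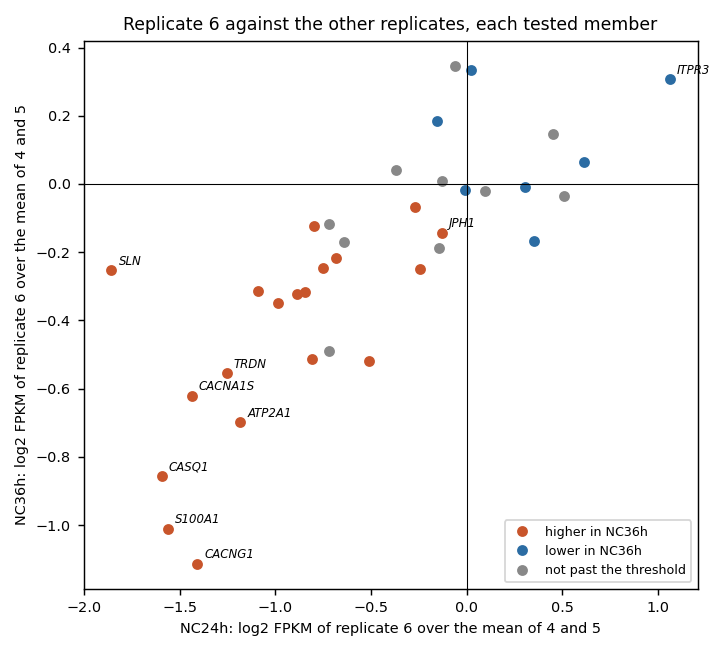
log2 ratio of replicate 6 to the mean of replicates 4 and 5, in NC24h (horizontal axis) and NC36h (vertical axis), for the 36 tested members. All 19 members that rose lie in the lower left corner, where replicate 6 is the lower in both groups, and ITPR3, which fell, lies at the upper right.

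Calcium genes outside the set had other shares. In a list of 96 further genes of calcium transport, storage and signaling, 74 could be paired with a row and 53 could be tested. Of these 53, 7 (13.2%) rose and 24 (45.3%) fell, with a median log2 change of -0.26. These shares stood near those of all genes tested (16.5% and 34.4%). With a log2 change of at least 1, DYSF (dysferlin, a membrane repair protein found at T-tubules) rose by 2.08, CACNG6 (a gamma subunit of calcium channels) by 1.73 and ATP1B4 (a muscle protein related to sodium-potassium pump subunits) by 1.71, with limma adjusted p of 0.00223, 0.00206 and 0.0128. DYSF had 2.17, 1.69 and 0.995 FPKM in NC24h and 14.2, 10.7 and 6.28 in NC36h, again with replicate 6 lowest in both. In the other direction, CALM2 (one of the calmodulin genes) fell by 1.56, RCAN2 by 1.35 and RCAN3 (both calcineurin regulators) by 1.01, with limma adjusted p of 0.000928, 0.00193 and 0.00830. Without NC24h replicate 6 the log2 changes of these 6 genes were 1.90, 1.49, 1.58, -1.39, -1.19 and -0.78. For comparison with the contractile apparatus, 20 of the 24 tested genes of a sarcomere list rose, with a median log2 change of 1.22 (1.0 without NC24h replicate 6). The 4 voltage sensor subunits had a median of 1.49 (1.24 without that library) and the 4 storage genes of 1.28 (1.0 without it), and these differences between lists were not tested.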

How the data were processed

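Per the paper, the authors used HISAT2 for mapping to Sscrofa11.1, StringTie for assembly and HTSeq for counting. The deposited values are FPKM, with no libraries pooled. The submitters' processing notes name TopHat2, Cufflinks and HTSeq instead. Strandedness and the handling of shared reads are not given in the sources used here. The extraction protocol in the labels names endometrium, whereas the tissue label is skeletal muscle.

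Symbols were paired with 11804 of 25322 Ensembl identifiers. Coordinates were matched by symbol in RefSeq (Sscrofa11.1). Members and lists were chosen with earlier results of these data known. Every member is accounted for by name; all libraries are printed for members past the threshold with a log2 change of at least 1, the most abundant of each role and their pair partners, and other calcium genes are named past the threshold with such a change.

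Genes whose FPKM averaged at least 1 over the 6 libraries were tested on the log2(FPKM + 1) scale by limma 3.58.1 under R 4.3.3 (two-sided, eBayes with trend, Benjamini-Hochberg threshold 0.05). In simulated data with 200 of 14060 genes changed by 1 on the log2 scale, 79.5% were called, and 5.36% of calls were unchanged genes. The simulated noise was independent between genes and libraries, with no library that stood apart. In the real data 50.9% of genes were called, so these shares need not hold there. The fragments recovered from FPKM steps were whole (tolerance 0.02) for all 19543 genes detected in 3 or more libraries. The search tries many multiples, so whole numbers alone do not show that a recovery is right. In FPKM values simulated for 2919 genes with known library totals, 98.46% of genes were recovered exactly. Alternatives were other pseudocounts (0.1, 0.01), minimums, scalings, voom on recovered fragments, a replicate block and leaving out each library. Promoter motifs were planned and not analysed here.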

Additional observations from a re-analysis of the deposited data

How the results depend on the processing

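Of the 36 members tested, 22 kept their direction and their side of the threshold in every alternative that gave a value, 8 called members lost the call in at least 1 alternative, and 3 uncalled members changed direction. Both other pseudocounts, no minimum, a mean FPKM of at least 5 and eBayes without trend changed no member's call. Requiring a log2 change of at least 1 left 1176 of 7156 genes called (506 higher, 670 lower), with 2 members lower and, of the other calcium genes, 3 higher and 3 lower, since it removes small changes by construction. Median-ratio scaling left 3136 genes lower in place of 4834 and 12 other calcium genes higher in place of 7, and the share of higher genes among calls was larger than on the deposited values.

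Leaving out 1 library at a time gave between 4889 and 7336 genes called, of which 1580 to 2440 were higher and 3309 to 4896 lower. Among members 13 to 20 were higher and 5 to 8 lower, among other calcium genes 4 to 10 and 16 to 26 (the 10 without both replicate 6 libraries, a fit chosen after seeing the data), and 15 to 21 sarcomere genes were higher. The lowest counts of other calcium genes came without NC36h replicate 5. The log2 change of NFATC1 ranged from -0.131 to 0.174 and that of NFATC3 from -0.081 to 0.034, and NFATC1 was at -0.007 without both replicate 6 libraries. NFATC3 was at 0.12 after median-ratio scaling and 0.13 after quantile normalization, and RCAN1 at 0.011 after median-ratio scaling. The differences of the log2 ratios ranged from -0.083 to 0.225 for NFATC1 over NFATC3 and from -0.044 to 0.357 for NFATC2 over NFATC3. The cause of these changes was not tested.

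Both groups use the numbers 4, 5 and 6, but deviations from the group means of same-numbered libraries correlated across genes at 0.146, -0.0165 and 0.178, so libraries that share a number were not treated as pairs. A replicate block in the fit gave 7034 calls (2341 higher, 4693 lower), with 20 members higher and 7 lower. ORAI3 passed the threshold there (adjusted p = 0.0482). NC24h replicates 4 and 6 correlated best with their own numbers in NC36h. Their correlations with the other numbers were at most 0.105 and -0.0716. NC24h replicate 5 correlated best with NC36h replicate 4 (0.0714), not with its own number.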

Other observations

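Outside the members, 7 genes of calcium-binding and folding proteins of the secretory pathway were chosen after their values were seen. Of these, 6 fell, a count that the choice itself can produce and that is no result about the pathway. Among all genes tested, 34.4% fell. SDF4 did not pass the threshold (log2 change -0.13, limma adjusted p = 0.0980). CALR (calreticulin) had 320, 351 and 386 FPKM in the NC24h libraries, in the order of replicates 4, 5 and 6, and 284, 280 and 295 in those of NC36h (log2 change -0.29, limma adjusted p = 0.0233, range 0.0128 to 0.221 over its alternatives), a call that was lost after median-ratio scaling at -0.12, as were those of CALU and HSPA5 (adjusted p = 0.164 and 0.0839). CANX (calnexin) had a log2 change of -0.39, RCN1 (reticulocalbin) of -0.58 and PDIA3 of -0.50, with limma adjusted p of 0.00254, 0.0137 and 0.0114. CALR, CANX, RCN1 and PDIA3 did not overlap between the groups, and their order was opposite to that of SRL and HRC of the SR lumen.

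Genes of the mitochondrial calcium uniporter were chosen in the same way. MCUB, a pore subunit that limits transport, had 15.1, 15.7 and 18.3 FPKM and then 9.79, 9.53 and 9.94 (log2 change -0.69, limma adjusted p = 0.00166). MCU, the pore itself, had a log2 change of -0.27 (limma adjusted p = 0.0199, range 0.0167 to 0.269).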
